A study of Homo sapiens with 13 samples.

Results

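The semaphorins, plexins and neuropilins are a ligand and receptor system of growing axons. Of the genes counted, 31 protein-coding genes were taken by symbol. They are 20 semaphorins of classes 3 to 7, 9 plexins of the A, B, C and D subfamilies, and 2 neuropilins. The family itself was chosen with earlier results of these data known. The tables hold 41723 genes with counts for the doxycycline set and 38116 for the FGF2 set. All 31 had reads in both sets, and all 31 passed the filter on low counts in the FGF2 set.

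The 13 bulk RNA-seq libraries, in 9 groups, came from the H9 line of human embryonic stem cells with a NEUROG2 gene that doxycycline switches on. The doxycycline set has 1 library each of cells with doxycycline (1 µg/ml) for 5 days, cells with doxycycline for 11 days, their controls of the same days without doxycycline, and cells at day 0. In the FGF2 set every culture, controls included, received doxycycline at 1 µg/ml for the first 6 days. Its 4 groups of 2 libraries are late FGF2 (given for the last 6 days, after doxycycline had ended, harvested on day 12) with its day-12 control, and early FGF2 (given with doxycycline for 6 days, harvested on day 6) with its day-6 control. FGF2 was at 20 µg/ml as the labels state it. After day 0, cultures were kept on matrigel in mTesrE8 medium for 2 days and in 3N medium from then on. Each library came from a single well. In the FGF2 set, replicate 1 of each group is titled hES-N2G1 and replicate 2 hES-N2G2, while the source name is hES-N1 throughout. The labels say neither what these numbers stand for (a culture, a clone or a line) nor which promoter drives the inducible gene. The p-values measure only the spread between these libraries. Cells lacking the inducible gene were not among the samples given doxycycline, so effects of doxycycline and of NEUROG2 cannot be told apart.

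Total counts per library ranged between 28443657 and 47159475 for the doxycycline set, and between 22802501 and 30014661 for the FGF2 set. Levels are CPM, counts scaled by TMM to a common library size, and levels of different genes are compared as CPM per kb of exon. NEUROG2 was at 1564 CPM on day 5 with doxycycline, against 1.34 CPM in the control, and at 1018 CPM on day 11, against 6.26 CPM. In the FGF2 set it was at 49.3 to 54.7 CPM on day 12 and at 7544 to 7831 CPM on day 6. The summed level of 12 neuronal markers was 13302 CPM on day 5 with doxycycline against 75.4 CPM in the control, and 15784 CPM on day 11 against 290 CPM. All 12 neuronal markers, SLC17A6 and SLC17A7 of glutamatergic neurons among them, were at 1 CPM or more in every library of cells that had received doxycycline. In the FGF2 set their sum was 16976 to 18425 CPM on day 12 and 9523 to 9825 CPM on day 6. Of 6 pluripotency markers, LIN28A stayed at 108 CPM or more and DNMT3B at 26.8 CPM or more in every library, whereas TDGF1 had 0 counts in all 8 FGF2-set libraries. In bulk samples, fewer cells of a type and less RNA per cell cannot be told apart.

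Semaphorins carry a conserved sema domain and steer growth cones, mostly by repulsion and sometimes by attraction. Class 3 members are secreted and most of them need a neuropilin, which binds the ligand, beside a plexin A, which carries the signal into the cell. SEMA3E is an exception that can bind PLXND1 directly. Classes 4 to 6 span the membrane and class 7 is held by a lipid anchor. SEMA4D acts through PLXNB1, SEMA6A through PLXNA2 and PLXNA4, SEMA6D through PLXNA1, and SEMA7A through PLXNC1 or integrin beta 1. Inside the cell, plexins are GTPase-activating proteins for small GTPases of the Ras family and act on the cytoskeleton.

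Of the class 3 genes, 4 neighbour each other on chromosome 7 in GRCh38, all on the minus strand, in the order SEMA3C (chr7:80742538-80922359), SEMA3E (chr7:83363238-83649113), SEMA3A (chr7:83955777-84492724) and SEMA3D (chr7:84995553-85186855). The gap from SEMA3C to SEMA3E is 2.44 Mb and holds 3 protein-coding genes. The gaps of 0.31 Mb and 0.5 Mb that follow hold 0 protein-coding genes. PLXNA4 lies on the same chromosome (chr7:132123332-132648688). The 250 bases before a RefSeq start (GRCh38.p14, minus strand, 5′ to 3′) are shown for SEMA3C, SEMA3E and SEMA3D, the 3 neighbours whose level changed with late FGF2, and for PLXNA4, the receptor gene with the highest doxycycline ratios. They lie at chr7:80922390-80922639 for SEMA3C (the first of its 2 RefSeq starts), chr7:83649140-83649389 for SEMA3E (the first of 2), chr7:85187057-85187306 for SEMA3D and chr7:132576471-132576720 for PLXNA4. Capitals mark an E-box of the letters CAGATG or CATCTG, searched because NEUROG2 belongs to the E-box binding proneural factors, or an ETS motif of the letters CCGGAA or TTCCGG, the kind bound by factors downstream of FGF receptors. A sequence without capitals holds neither.
SEMA3C: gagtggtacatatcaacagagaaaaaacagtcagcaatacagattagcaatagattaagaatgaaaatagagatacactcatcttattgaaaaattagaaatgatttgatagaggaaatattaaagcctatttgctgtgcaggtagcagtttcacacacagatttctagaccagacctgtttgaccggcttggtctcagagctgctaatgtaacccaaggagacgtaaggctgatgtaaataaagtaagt
SEMA3E: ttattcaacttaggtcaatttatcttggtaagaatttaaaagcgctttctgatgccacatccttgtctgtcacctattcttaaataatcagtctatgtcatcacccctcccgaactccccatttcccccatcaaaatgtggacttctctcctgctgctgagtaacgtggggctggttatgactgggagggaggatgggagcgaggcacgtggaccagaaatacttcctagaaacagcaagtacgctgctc
SEMA3D: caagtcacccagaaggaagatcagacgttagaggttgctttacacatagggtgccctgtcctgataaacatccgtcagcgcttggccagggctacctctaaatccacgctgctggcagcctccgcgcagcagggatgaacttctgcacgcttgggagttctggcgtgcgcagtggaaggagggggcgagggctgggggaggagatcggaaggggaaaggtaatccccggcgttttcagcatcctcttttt
PLXNA4: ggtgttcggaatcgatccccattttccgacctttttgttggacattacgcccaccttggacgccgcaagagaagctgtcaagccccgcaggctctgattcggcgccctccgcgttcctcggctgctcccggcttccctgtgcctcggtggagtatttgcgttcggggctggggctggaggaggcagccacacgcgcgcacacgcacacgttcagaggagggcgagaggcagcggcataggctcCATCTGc

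Among these 4 windows only that of PLXNA4 held a match, an E-box at position -7 from the start, and the windows of the second starts of SEMA3C and SEMA3E held none. Base composition differed between the windows, with 36.4% G and C for SEMA3C, 46.4% for SEMA3E, 57.6% for SEMA3D and 63.6% for PLXNA4. It also depended on the start, with 77.6% at the second start of SEMA3C and 34.8% at that of SEMA3E. RefSeq windows were matched for 27 of the 31 genes and not for SEMA3A, SEMA6A, SEMA6B and NRP1. The E-box, read on both strands, was in a window of 4 of the 27 genes (PLXNA4, SEMA3B, SEMA4A and SEMA4B), against 14.57% of 27305 genes of the table. The ETS motif was in 4 of the 27 (PLXNA1, PLXNB1, SEMA4A and SEMA4B), against 17.19% of all genes. The 2 motifs cannot overlap each other, and a match or its absence says only what these windows spell.

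Before induction the stem cells already expressed much of the family, with 19 of 31 genes at 10 CPM or more at day 0. The class 6 transmembrane ligand gene SEMA6A had the highest level per kb in the 3 libraries that never received doxycycline, with 38.1 CPM per kb at day 0, 98.2 in the day-5 control and 36.0 in the day-11 control. Next at day 0 were SEMA3F, a secreted ligand of NRP2, at 20.0 CPM per kb and PLXNB2, a receptor of class 4 ligands, at 19.7. The lowest were NRP1 at 0.167, SEMA3E at 0.162 and PLXNA4 at 0.0711 CPM per kb. Without doxycycline, 2 genes were at least 4-fold higher on day 5 than at day 0, among 21 at 10 CPM or more in either library, beside 0.839% of all genes higher and 1.05% past that ratio in either direction (80% of those higher with TMM and 67.8% with library totals). They were SEMA3B, at 27.2 CPM against 6.03 CPM, and SEMA4A, at 47.7 CPM against 8.84 CPM. With library totals 1 of them passed 4-fold, and with the authors' deposited normalised values 0. On day 11, 4 of 24 genes were at least 4-fold higher than at day 0 and 0 were lower, beside 4.57% of all genes (2.11% higher and 2.46% lower). SEMA6D was at 67.9 CPM in the day-11 control against 3.60 CPM at day 0, and SEMA3E at 33.5 CPM against 1.37 CPM. SEMA3C was at 13.01 CPM against 1.62 CPM, and PLXNA2 at 20.9 CPM against 3.72 CPM. These 4 genes, low at day 0, were thus detected at higher levels by day 11 in 3N medium without doxycycline, when the 12 neuronal markers summed to 290 CPM, against 90.9 CPM at day 0. Pluripotency markers summed to 1729 CPM in the day-11 control, against 4342 CPM at day 0, and progenitor markers to 761 CPM, against 440 CPM. In the day-5 control mesenchymal markers summed to 949 CPM, against 245 CPM at day 0. The part of these cell types in the ratios was not tested.

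**Figure D1:**
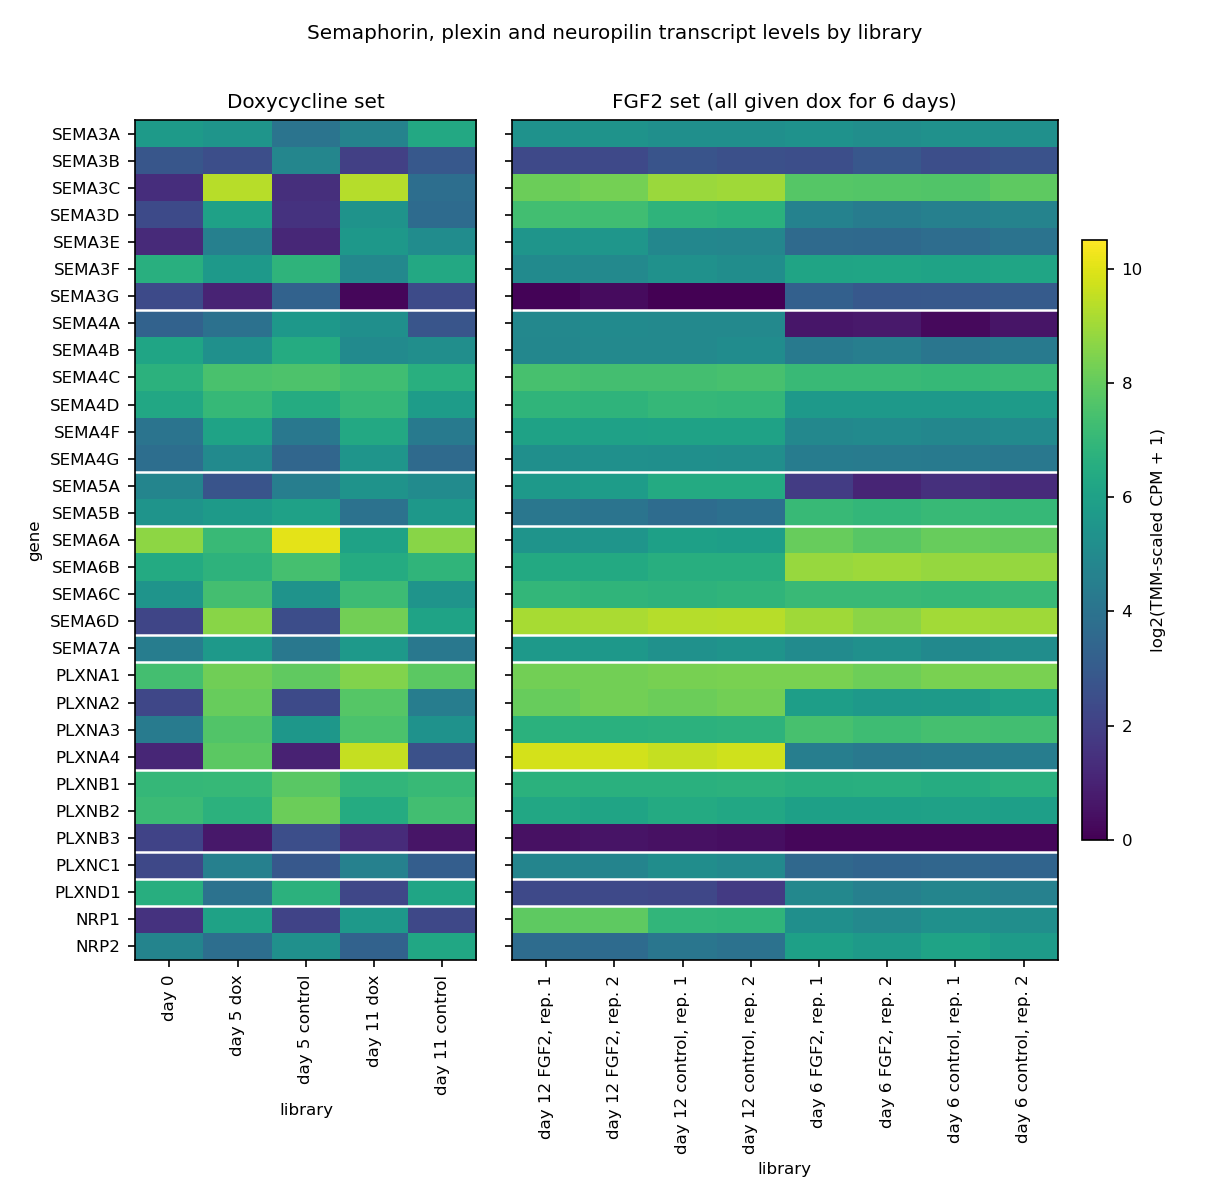
Level of each of the 31 genes in each library as log2(CPM + 1), with semaphorins on top, plexins below them and neuropilins at the bottom; the left panel holds the doxycycline set and the right panel the FGF2 set, each scaled within its own sequencing run. On the left SEMA3C is at 661 and 644 CPM with doxycycline and at 1.62 to 13.01 CPM in the 3 libraries without it, and on the right SEMA4A, SEMA5A and PLXNA4 separate day 12 from day 6.

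In the doxycycline set the leading ligand gene with doxycycline was SEMA3C in place of SEMA6A. The receptor genes PLXNA4, PLXNA2 and NRP1 were at least 4-fold higher on both days. In the day-6 groups of the FGF2 set, also given doxycycline, SEMA6B led instead. SEMA6B was at 104 CPM per kb in the control and 109 with early FGF2, SEMA3C at 34.7 and 33.0, and PLXNA4 at 1.24 and 1.21. Ratios of the doxycycline set rest on 1 library per group, so no test was possible, and intervals cover counting error only. A log2 ratio is of CPM + 1 and decides whether a gene passed 4-fold, while a ratio given with an interval is of CPM alone. On day 5, 11 of the 29 genes at 10 CPM or more in either library differed by at least 4-fold (8 higher, 3 lower; 37.9%), beside 24% of all genes (12.6% higher and 11.5% lower). On day 11 it was 10 of 28 (7 higher, 3 lower; 35.7%), beside 21.4% of all genes (11.5% higher and 9.85% lower). The genes' median log2 ratio was 0.55 on day 5, beside 0.23 for all genes, and 0.94 on day 11, beside 0.16. Scaling by library totals in place of TMM moved the median of all genes to 0.06 on day 5 and to -0.18 on day 11, and on day 11 the share of higher genes among those past 4-fold was 53.87% with TMM and 42.52% with totals. With totals, the genes of the family past 4-fold numbered 7 higher and 3 lower on day 5, and 5 higher and 3 lower on day 11, with PLXNA3 just under the threshold on both days and SEMA6D on day 11. With the authors' deposited normalised values the day-11 counts were 4 higher and 4 lower. SEMA3C, PLXNA4, SEMA6D, PLXNA2, NRP1 and PLXNA3 were at least 4-fold higher on both days, and SEMA6A and PLXND1 at least 4-fold lower on both.

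Among secreted ligands, SEMA3C, which repels or attracts axons depending on the neuron, was at 661 CPM on day 5 with doxycycline, against 1.68 CPM in the control and 1.62 CPM at day 0. The day-5 ratio was 392 (95% exact binomial counting interval 301 to 523) and was the highest of the 31 genes. On day 11 SEMA3C was at 644 CPM with doxycycline, against 13.01 CPM in the control, a ratio of 49.5 (45.0 to 54.6). Per kb it was the highest of the family with doxycycline on both days, at 105 and 103 CPM per kb. Its chromosome 7 neighbours followed on day 5, with SEMA3D at 62.6 CPM with doxycycline against 1.90 CPM in the control and SEMA3E at 22.9 CPM against 1.25 CPM. On day 11, SEMA3D was at 41.2 CPM with doxycycline against 11.7 CPM and SEMA3E at 47.3 CPM against 33.5 CPM, both under 4-fold. SEMA3A, the founding repellent of sensory axons, had log2 ratios of 1.43 on day 5 and -1.63 on day 11. It was at 43.2 CPM with doxycycline against 15.4 CPM on day 5, and at 25.3 CPM against 80.4 CPM on day 11. SEMA3B was lower on day 5, at 4.67 CPM against 27.2 CPM (ratio 0.172, 0.146 to 0.201), and at 3.00 CPM against 6.38 CPM on day 11. SEMA3F was at 49.0 CPM with doxycycline against 113 CPM on day 5 and at 28.8 CPM against 78.7 CPM on day 11, and SEMA3G, under 10 CPM in all 5 libraries, was at 1.06 CPM against 8.95 CPM and at 0.151 CPM against 4.25 CPM.

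Of the membrane-bound ligands, class 6 members differed in direction. SEMA6D reached 399 CPM with doxycycline on day 5, against 4.52 CPM in the control, a ratio of 88.2 (74.9 to 105), and 310 CPM on day 11, against 67.9 CPM, a ratio of 4.57. SEMA6A had 139 CPM with doxycycline on day 5, against 1076 CPM (ratio 0.129, 0.126 to 0.133), and 65.5 CPM on day 11, against 395 CPM (0.166, 0.158 to 0.174). The ligand gene that led the family without doxycycline was thus lower with it at both days. SEMA6C was at 162 CPM with doxycycline against 41.6 CPM on day 5 and at 145 CPM against 41.9 CPM on day 11. SEMA6B had log2 ratios of -0.63 and -0.40. In class 4, SEMA4A had log2 ratios of -1.71 on day 5 and 2.47 on day 11. It was at 13.9 CPM with doxycycline against 47.7 CPM on day 5, and at 36.8 CPM against 5.81 CPM on day 11, so the control levels differed more between the days than the levels with doxycycline. SEMA4F had log2 ratios of 1.89 and 1.99, SEMA4G of 1.54 and 1.83, and SEMA4D of 0.55 and 1.22. SEMA4G shares 27.43% of its exon bases with genes on the opposite strand, and the library kit does not mark strand, so its reads may be mixed. SEMA4B (-1.19 and -0.19) and SEMA4C (-0.09 and 0.65) stayed under 4-fold. SEMA7A had log2 ratios of 1.44 and 1.43. In class 5, SEMA5A had log2 ratios of -1.80 and 0.33 and SEMA5B of -0.29 and -1.64.

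Among receptors, 3 of the 4 plexin A genes were at least 4-fold higher with doxycycline on both days, PLXNA3 with TMM scaling but not with library totals. PLXNA4, a receptor of SEMA6 ligands and a partner of neuropilins, was at 231 CPM on day 5 with doxycycline against 0.998 CPM in the control (32 counts), a ratio of 232 (164 to 339). On day 11 it was at 754 CPM against 5.06 CPM, a ratio of 149 (128 to 175), the highest of the family on that day. PLXNA2 was at 269 CPM with doxycycline against 4.18 CPM on day 5 and at 211 CPM against 20.9 CPM on day 11. PLXNA3 was at 198 CPM against 46.0 CPM and at 183 CPM against 39.9 CPM. PLXNA1, the fourth, was already at 162 CPM at day 0 and stayed under 4-fold, with log2 ratios of 0.29 and 0.66. The summed level of the plexin A genes was 77.6 CPM per kb with doxycycline on day 5 against 26.5, and 110 on day 11 against 26.02, while the plexin B genes summed to 27.8 against 63.1 and to 24.5 against 35.7. Of the single genes, PLXNB1 had log2 ratios of -0.81 and -0.15, PLXNB2 of -1.42 and -0.88, and PLXNB3, under 10 CPM throughout, of -1.86 and 0.68. PLXND1, a receptor of SEMA3E, was at 14.6 CPM with doxycycline against 107 CPM on day 5 (ratio 0.137, 0.126 to 0.150) and at 3.76 CPM against 71.5 CPM on day 11 (0.0525, 0.0435 to 0.0630). PLXNC1, the receptor of SEMA7A, had log2 ratios of 1.70 and 1.49.

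The neuropilins differed in opposite directions. NRP1, which serves SEMA3A and VEGF, was at 65.2 CPM on day 5 with doxycycline against 3.27 CPM in the control and at 48.6 CPM on day 11 against 3.89 CPM, a ratio of 12.5 (10.46 to 15.1) on day 11. NRP2, which serves SEMA3F, was at 12.8 CPM against 37.6 CPM on day 5 and at 8.76 CPM against 75.4 CPM on day 11, a day-11 ratio of 0.116 (0.102 to 0.131). Per kb, NRP1 made up 85.998% of the neuropilin level on day 5 with doxycycline, against 9.50% in the control, and 87.0% on day 11 against 5.85%. Within the doxycycline set, at 1 library per group, the main neuropilin transcript therefore differed between cultures with and without doxycycline. The FGF2 set cannot show such a difference, because all its libraries had received doxycycline. On day 6 NRP1 made up 40.5% to 44.5% there. Within the doxycycline set, marker sums of the cell types also differed between cultures with and without doxycycline. Pluripotency markers summed to 625 CPM with doxycycline on day 5 against 5102 CPM and to 204 CPM on day 11 against 1729 CPM, and markers of dividing cells to 58.7 against 1546 and to 25.2 against 1688. The 6 endothelial markers summed to 6.58 CPM with doxycycline against 44.5 CPM on day 5 and to 1.67 CPM against 65.4 CPM on day 11, with PECAM1 at 0 counts with doxycycline on both days. The 8 mesenchymal markers summed to 25.8 CPM against 949 CPM and to 30.3 CPM against 252 CPM. Their part in the ratios was not tested.

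**Figure D2:**
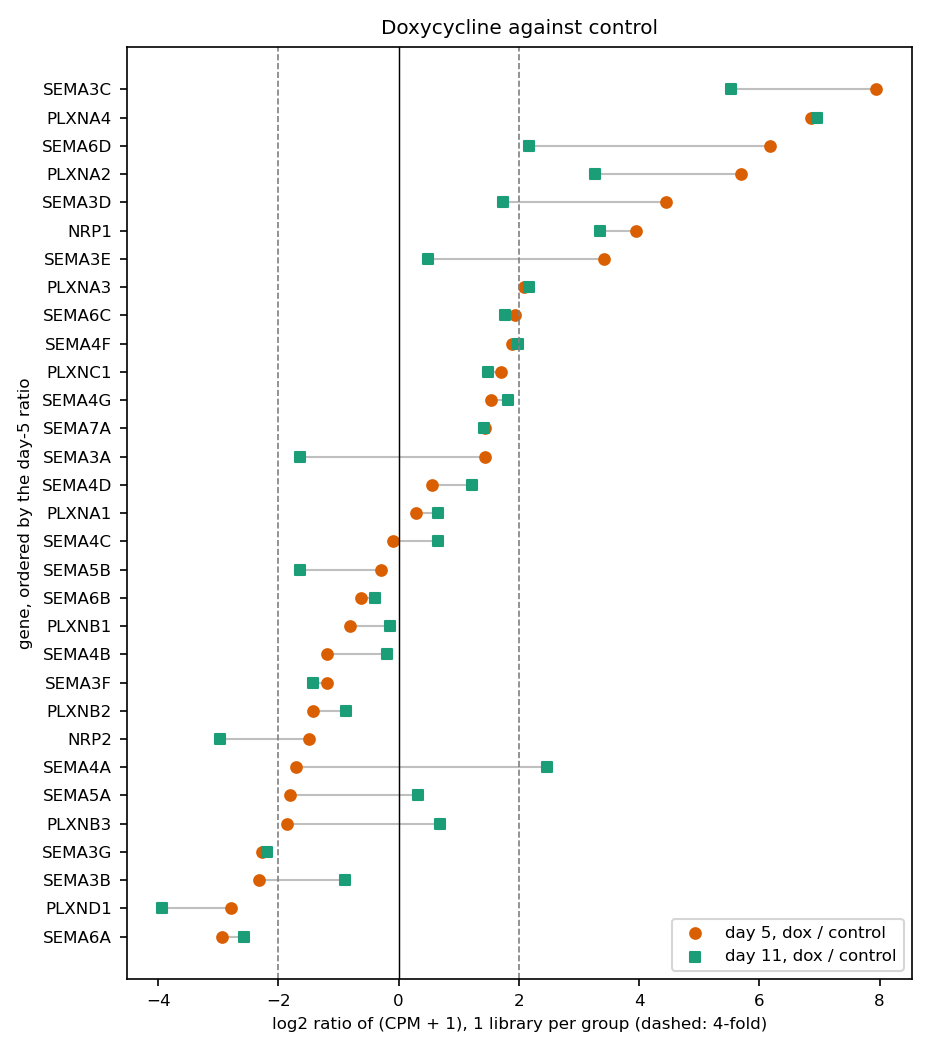
Log2 ratio of doxycycline over control for each of the 31 genes, ordered by the day-5 ratio, on day 5 (circles) and day 11 (squares), with 1 library per group and dashed lines at 4-fold. SEMA3C and PLXNA4 stand at the top on both days, SEMA3E and SEMA3D fall under 4-fold on day 11, and SEMA3A and SEMA4A lie at least 2-fold on opposite sides of the control on the 2 days. SEMA3G lies past the lower line but stayed under 10 CPM in every library.

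Between day 11 and day 5 under continued doxycycline few genes of the family differed by 4-fold, as was the case for all genes. Of 28 genes at 10 CPM or more in either library, 1 differed by at least 4-fold (3.57%), beside 1.96% of all genes. SEMA5A, whose product can attract or repel axons, was at 41.3 CPM on day 11 with doxycycline against 5.54 CPM on day 5 with doxycycline, a ratio of 7.45 (6.48 to 8.61). The next ratios were those of PLXNA4 at 3.27 (3.19 to 3.34) and SEMA4A at 2.64 (2.39 to 2.92) and SEMA3E at 2.06 (1.90 to 2.24), and at the other end SEMA6A at 0.471 (0.448 to 0.495), SEMA5B at 0.281 (0.254 to 0.311) and PLXND1 at 0.257 (0.210 to 0.312).

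In the replicated set, the family's profile differed widely between day 12, 6 days after doxycycline ended, and day 6 at the end of doxycycline. By edgeR's quasi-likelihood test with Benjamini-Hochberg adjustment over 20142 genes, 26 of the 31 genes passed an adjusted p of 0.05 in the controls without FGF2, 17 higher and 9 lower on day 12, which is 83.9% beside 64% of all genes (31.7% higher and 32.3% lower). The median log2 change of the family was 0.34, beside 0.00 for all genes. Time in culture and the end of doxycycline changed together, so they cannot be told apart. PLXNA1 (log2 change -0.02, 95% interval -0.19 to 0.14), PLXNB1 (0.11, -0.06 to 0.28), SEMA3A (-0.06, -0.25 to 0.14), SEMA3B (0.06, -0.33 to 0.45) and PLXNB3 (1.42, -0.01 to 2.85) did not pass.

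The greatest rises were in ligand genes of classes 4 and 5 and in PLXNA4. SEMA4A, a class 4 ligand known from immune cells and the retina, was at 29.96 and 29.96 CPM in the day-12 controls, against 0.215 and 0.515 CPM (5 and 12 counts) in the day-6 controls. Its log2 change was 6.34 (SE 0.21; adjusted p = 9.48e-13). SEMA5A was at 85.1 and 85.6 CPM on day 12, against 1.76 and 1.42 CPM on day 6, a log2 change of 5.74 (SE 0.20; adjusted p = 1.45e-12). PLXNA4 was at 755 and 853 CPM on day 12, against 19.9 and 20.6 CPM on day 6, a log2 change of 5.31 (SE 0.10; adjusted p = 5.97e-15). In each of these 3 genes both day-12 libraries stood far above both day-6 libraries. The 3 genes were picked as the greatest called rises on these libraries, so this adds no support. The share of all genes that do the same was not counted. All 6 class 4 genes rose, with log2 changes of 1.26 for SEMA4D, 1.13 for SEMA4F, 1.00 for SEMA4G, 0.86 for SEMA4B and 0.34 for SEMA4C beside SEMA4A.

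Receptor and class 3 genes that rose were PLXNA2 (log2 change 2.37), SEMA3D (2.16), PLXNC1 (1.71), NRP1 (1.68), SEMA3C (1.19), SEMA3E (1.01) and PLXNB2 (0.39). SEMA7A (0.32) and SEMA6D (0.33) rose by less. The SEMA7A call was lost when replicate 1 of the day-6 control or replicate 2 of the day-12 control was left out (adjusted p up to 0.167).

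The falls were led by SEMA3G, a secreted ligand best known from blood vessels, with 0 counts in both day-12 controls, against 156 and 164 counts (6.70 and 7.04 CPM) in the day-6 controls. With a floor of 3 counts over the group, it was at least 110-fold lower on day 12 (adjusted p = 2.58e-09). SEMA5B was at 12.1 and 13.7 CPM on day 12, against 135 and 130 CPM on day 6, a log2 change of -3.36 (SE 0.10; adjusted p = 3.03e-13). PLXND1 was at 3.65 and 2.43 CPM on day 12, against 26.2 and 23.4 CPM on day 6, a log2 change of -3.02 (SE 0.18; adjusted p = 8.90e-10). SEMA5A and SEMA5B, the 2 class 5 genes, thus changed in opposite directions. In class 6, SEMA6B fell by 2.27, SEMA6A fell by 2.13 and SEMA6C fell by 0.24 on the log2 scale, while SEMA6D rose. SEMA6B had led the family on day 6, at 104 CPM per kb, and was at 21.5 CPM per kb on day 12. The SEMA6C call was lost with scaling by library totals and without replicate 2 of the day-6 control or replicate 1 of the day-12 control (adjusted p up to 0.115). NRP2 fell by 1.96, SEMA3F, its ligand, fell by 0.92 and PLXNA3 fell by 0.60 on the log2 scale. NRP1 made up 89.9% and 90.6% of the neuropilin level per kb on day 12, against 40.5% and 44.5% on day 6.

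The plexin total was 131 and 139 CPM per kb in the day-12 controls, against 71.8 and 72.2 on day 6. The semaphorin total was 308 and 317, against 329 and 334 CPM per kb. Cell type markers also differed between the days. The 6 markers of dividing cells summed to 9.61 and 10.8 CPM on day 12, against 451 and 378 CPM on day 6, and all 6 fell. The 12 neuronal markers summed to 17029 and 16976 CPM, against 9523 and 9825 CPM, with 7 called higher and 3 lower. The 6 endothelial markers summed to 1.01 and 1.11 CPM, against 27.8 and 28.5 CPM, and 4 of 4 tested fell, CLDN5 and CDH5 holding most of that level on day 6. The 8 mesenchymal markers summed to 7.18 and 7.21 CPM, against 44.8 and 43.8 CPM. The 6 progenitor markers summed to 871 and 932 CPM, against 1552 and 1549 CPM, with 2 called higher and 4 lower. The 8 glial and crest markers summed to 13.9 and 13.4 CPM, against 43.3 and 42.8 CPM, and the 6 pluripotency markers to 138 and 149 CPM, against 269 and 267 CPM, with 3 of 3 tested lower. Their part in the changes was not tested.

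**Figure D3:**
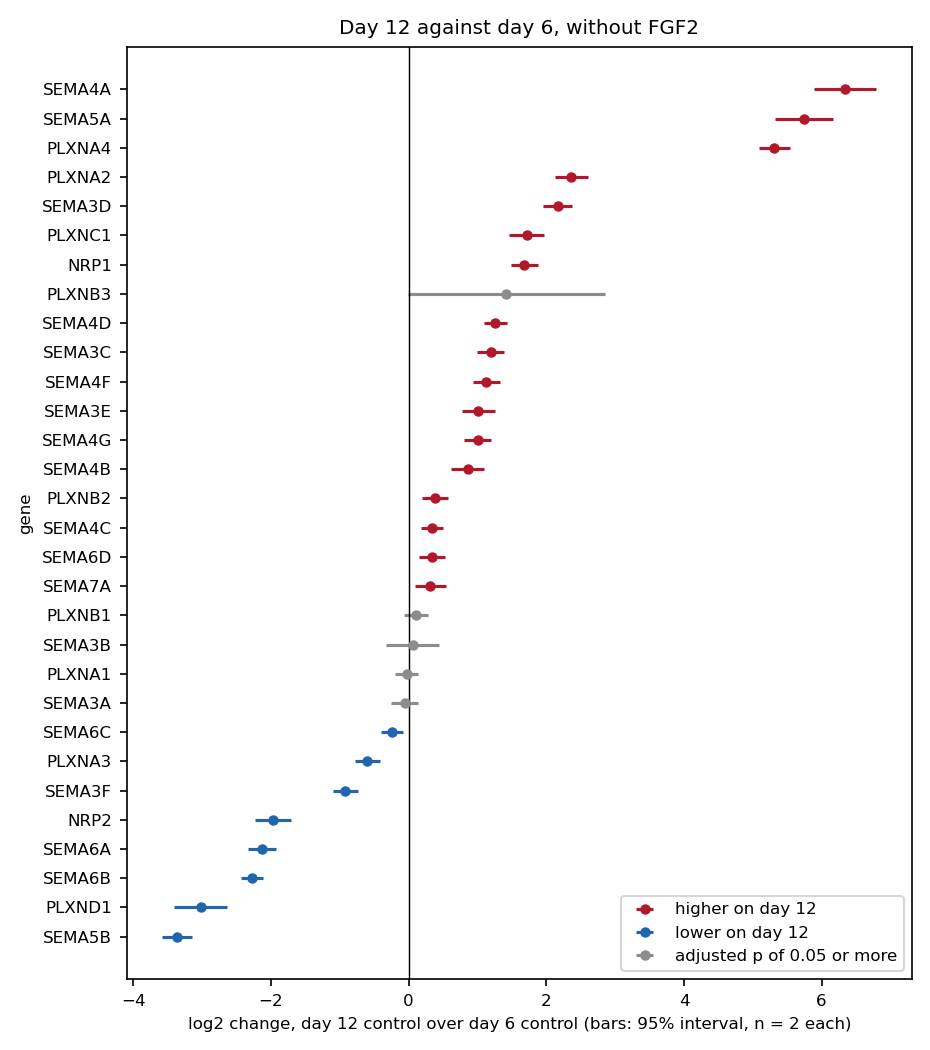
Log2 change of 30 of the 31 genes in the day-12 controls over the day-6 controls, with 95% intervals and 2 libraries per group; SEMA3G is left out because it had 0 counts on day 12. SEMA4A, SEMA5A and PLXNA4 lie above 5, and SEMA5B and PLXND1 lie near -3.

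With late FGF2 the coreceptor gene NRP1 rose 2.01-fold, neighbouring class 3 ligand genes changed in opposite directions, and 0 of 9 plexin genes passed the test. Of the 31 genes, 6 were called by edgeR's quasi-likelihood test (3 higher, 3 lower; 19.4%), beside 2.17% of all genes (1.63% higher and 0.536% lower). At an unadjusted p under 0.05 there were 15 genes, beside 2151 of 20142 of all genes. The median log2 change of the 31 genes was -0.02, beside 0.00 for all genes.

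NRP1 was at 238 and 236 CPM with late FGF2, against 120 and 115 CPM in the day-12 controls, or 237 ± 1.84 against 118 ± 3.25 CPM (SD, n = 2 each). Its log2 change was 1.01 (SE 0.087; 95% interval 0.82 to 1.19; adjusted p = 4.97e-06), and every alternative tried kept the call. NRP2 was at 12.2 and 11.7 CPM, against 16.3 and 14.5 CPM, and did not pass (log2 change -0.36, adjusted p = 0.279). With FGF2 the libraries did not overlap the controls for either neuropilin, but the share of all genes without overlap was not counted. NRP1 made up 95.9% and 96.0% of the neuropilin level per kb with late FGF2, against 89.9% and 90.6%, and the neuropilin sum was 21.5 and 21.3 CPM per kb, against 11.6 and 11.1.

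SEMA3E was at 43.0 and 45.1 CPM with late FGF2, against 28.5 and 27.3 CPM in the controls (44.1 ± 1.52 against 27.9 ± 0.811 CPM, SD, n = 2 each), a log2 change of 0.66 (SE 0.10; adjusted p = 0.00156). SEMA3D was at 159 and 153 CPM, against 111 and 104 CPM (156 ± 4.28 against 108 ± 5.45 CPM), a log2 change of 0.54 (SE 0.091; adjusted p = 0.00354). SEMA3C, on the same chromosome, was lower, at 284 and 318 CPM with late FGF2, against 479 and 515 CPM (301 ± 24.4 against 497 ± 25.5 CPM). Its log2 change was -0.72 (SE 0.089; 95% interval -0.91 to -0.53; adjusted p = 0.000173), and every alternative kept the call. SEMA3A, which lies between SEMA3E and SEMA3D, was at 40.1 and 40.7 CPM, against 36.2 and 36.7 CPM, and did not pass (log2 change 0.15, 95% interval -0.04 to 0.34). Of the 4 neighbours on chromosome 7, then, 2 rose, 1 fell and 1 was not called. SEMA3C was the highest of the family per kb in the day-12 controls at 79.3 CPM per kb, and with late FGF2 it came after SEMA6D (65.4) and PLXNA4 (54.1) at 48.0 CPM per kb.

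SEMA5A was at 50.8 and 54.8 CPM with late FGF2, against 85.1 and 85.6 CPM in the controls, a log2 change of -0.69 (SE 0.13; adjusted p = 0.00932). SEMA6A was at 42.5 and 43.2 CPM, against 61.2 and 58.5 CPM, a log2 change of -0.48 (SE 0.095; adjusted p = 0.0105). In all 6 called genes the libraries with FGF2 and the controls did not overlap. These genes were selected by the test on the same libraries, so this adds no support. The calls of SEMA5A and SEMA6A were lost when any of the 4 day-12 libraries was left out (adjusted p 0.0950 to 0.194 and 0.0893 to 0.168), and that of SEMA5A also with DESeq2's Wald test (adjusted p = 0.602). The SEMA3D call was lost without replicate 1 of late FGF2 (adjusted p = 0.0774) or without replicate 2 of the control (0.130), and the SEMA3E call without replicate 2 of the control (0.0531).

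The other 25 genes were not called. SEMA3G had 2 and 7 counts with late FGF2, against 0 and 0 counts, which is at least 2.53-fold higher with a floor of 3 counts over the group, and its adjusted p was 0.168. The log2 changes of the remaining 24 lay between -0.40 for SEMA3B and 0.38 for PLXND1. Those nearest to the threshold were SEMA5B (17.1 and 15.6 CPM with late FGF2, against 12.1 and 13.7 CPM; log2 change 0.34, adjusted p = 0.142), SEMA6B (82.1 and 82.8, against 94.7 and 95.3 CPM; -0.20, adjusted p = 0.251) and SEMA3F (31.6 and 29.99, against 38.2 and 34.9 CPM; -0.25, adjusted p = 0.253). SEMA6D, the class 6 ligand of PLXNA1, was at 552 and 568 CPM, against 643 and 658 CPM (-0.22, adjusted p = 0.369), SEMA7A at 50.6 and 47.6 CPM, against 38.7 and 42.8 CPM (0.27, adjusted p = 0.308), and PLXNC1, its receptor, at 26.7 and 26.01 CPM, against 34.3 and 30.05 CPM (-0.29, adjusted p = 0.288). For these 3 genes, too, the libraries of the 2 groups did not overlap, without passing the test over all genes. Without the share of all genes that do the same, nothing follows from this. The 6 class 4 genes, all of which had risen by day 12, had log2 changes with late FGF2 from -0.14 for SEMA4D to 0.03 for SEMA4G, and SEMA6C had 0.07. Intervals of the plexin A genes were narrow: the log2 change of PLXNA4 was 0.14 (95% interval -0.04 to 0.32), of PLXNA1 -0.11 (-0.27 to 0.06), of PLXNA2 -0.05 (-0.27 to 0.17) and of PLXNA3 -0.09 (-0.27 to 0.09). PLXNB3, at 0.299 to 0.461 CPM on day 12, shares 20.44% of its exon bases with SRPK3, and its interval (-0.86 to 1.36) was wide. In the authors' deposited table from DESeq2, 8 of the 31 genes had an adjusted p under 0.05 for late FGF2, the 6 above with SEMA6B and SEMA6D. In the authors' deposited table from limma, 11 had one, those 8 with PLXNC1, SEMA3F and SEMA7A.

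**Figure D4:**
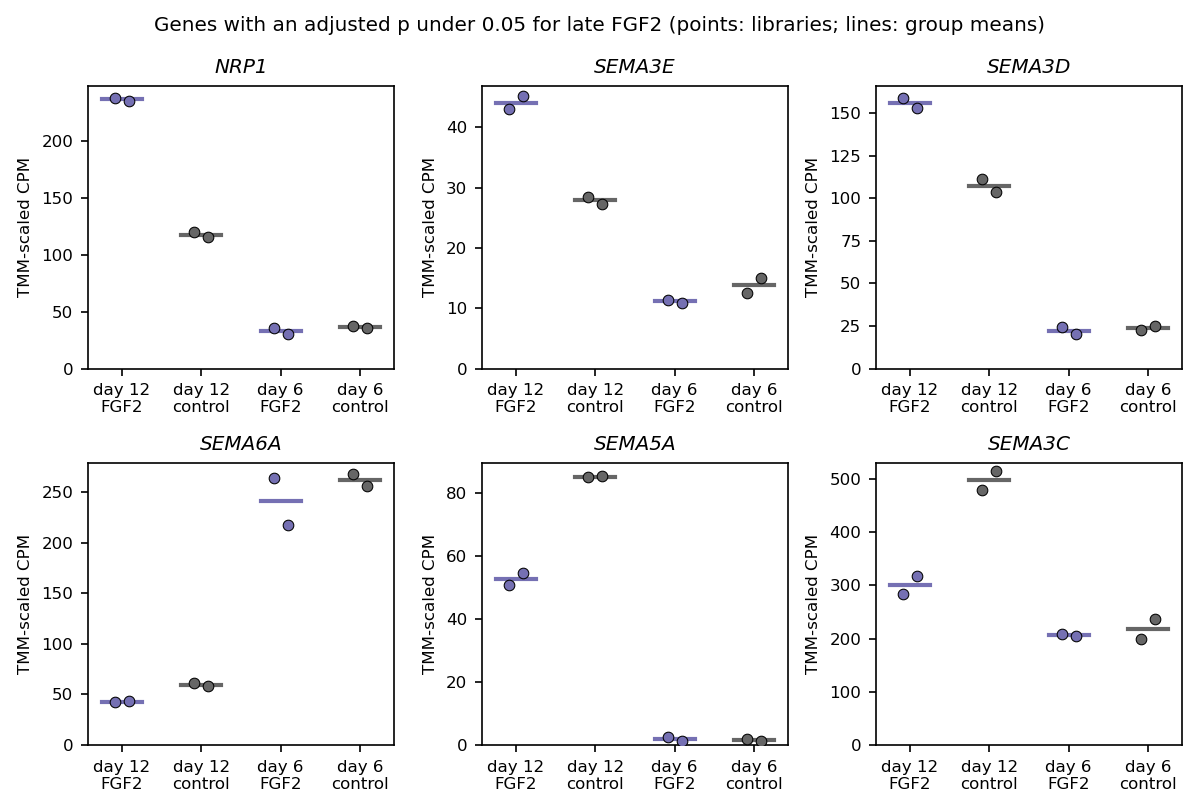
CPM of the 6 genes called for late FGF2 in each library of the FGF2 set, with points for libraries and lines for the mean of 2. NRP1, SEMA3E and SEMA3D are higher in both FGF2 libraries than in both controls on day 12, SEMA6A, SEMA5A and SEMA3C are lower, and day-6 levels with and without early FGF2 lie close together.

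For late FGF2, called markers were 2 of 6 progenitor (33.3%), 1 of 6 glial and crest (16.7%) and 1 of 12 neuronal (8.33%). Of all genes 2.17% were called, and 0 in the pluripotency, dividing-cell, mesenchymal and endothelial lists. The 12 neuronal markers summed to 18028 and 18425 CPM, against 17029 and 16976 CPM, with 1 called higher. The 6 progenitor markers summed to 1014 and 1095 CPM, against 871 and 932 CPM, with 2 of 6 called lower although the sum was higher. The 8 glial and crest markers summed to 17.1 and 17.9 CPM, against 13.9 and 13.4 CPM, with 1 called higher. The 6 markers of dividing cells summed to 7.94 and 10.4 CPM, against 9.61 and 10.8 CPM, and the 6 endothelial markers to 1.53 and 0.824 CPM, against 1.01 and 1.11 CPM, with 0 called in either list. The 8 mesenchymal markers summed to 12.4 and 7.58 CPM, against 7.18 and 7.21 CPM. At an unadjusted p under 0.05 there were 5 of 6 progenitor, 4 of 12 neuronal, 3 of 6 glial and crest, 1 of 6 mesenchymal, 0 of 6 dividing-cell and 0 of 4 endothelial markers tested, beside 2151 of 20142 genes. The part of the markers that moved was not tested.

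Early FGF2, given together with doxycycline, called 0 of the 31 genes by edgeR's quasi-likelihood test, and 0 by DESeq2 or limma, beside 0% of all genes. At an unadjusted p under 0.05 there was 1 gene, SEMA3E, at 11.3 and 10.9 CPM with early FGF2, against 12.6 and 15.1 CPM in the day-6 controls (log2 change -0.31, adjusted p = 0.927). NRP1 was at 36.0 and 29.95 CPM with early FGF2, against 37.5 and 35.9 CPM, and SEMA3C at 209 and 204 CPM, against 200 and 236 CPM. Groups overlapped for both genes, and for SEMA3E they did not, a separation that was not counted over all genes. The replicates with early FGF2 differed more than those of any other group: chi-square per degree of freedom over genes was 21.2, against 3.02 to 3.46 elsewhere. Without replicate 1 of early FGF2, the log2 changes of NRP1, PLXNA1, SEMA6A and SEMA6D were -0.33 to -0.20, against -0.16 to -0.09 with both replicates. That fit rests on 1 library with early FGF2, so nothing about the family follows from it.

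The difference between the effects of late and early FGF2 was tested in the same fit. It was called for 4 of the 31 genes (3 higher, 1 lower; 12.9%), beside 0.73% of all genes (0.645% higher and 0.0844% lower), and 10 had an unadjusted p under 0.05, beside 1475 of 20142 of all genes. The log2 difference was 1.16 for NRP1 (SE 0.13; adjusted p = 0.000186), 0.97 for SEMA3E (SE 0.15; adjusted p = 0.00483), 0.64 for SEMA3D (SE 0.14; adjusted p = 0.0466) and -0.65 for SEMA3C (SE 0.13; adjusted p = 0.0207). Those of SEMA5A (-0.94, SE 0.32; adjusted p = 0.416) and SEMA6A (-0.36, SE 0.13; adjusted p = 0.467) did not pass, so their late effects were not shown to differ from the early ones. The NRP1 difference kept its call under every alternative. The SEMA3E difference lost it without replicate 2 of the day-6 control (adjusted p = 0.0619). Those of SEMA3C and SEMA3D lost it in 5 and 6 of the 8 fits that left out a library, with adjusted p up to 0.241 and 0.366, and that of SEMA3D also with library totals, with DESeq2 size factors and with limma voom.

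**Figure D5:**
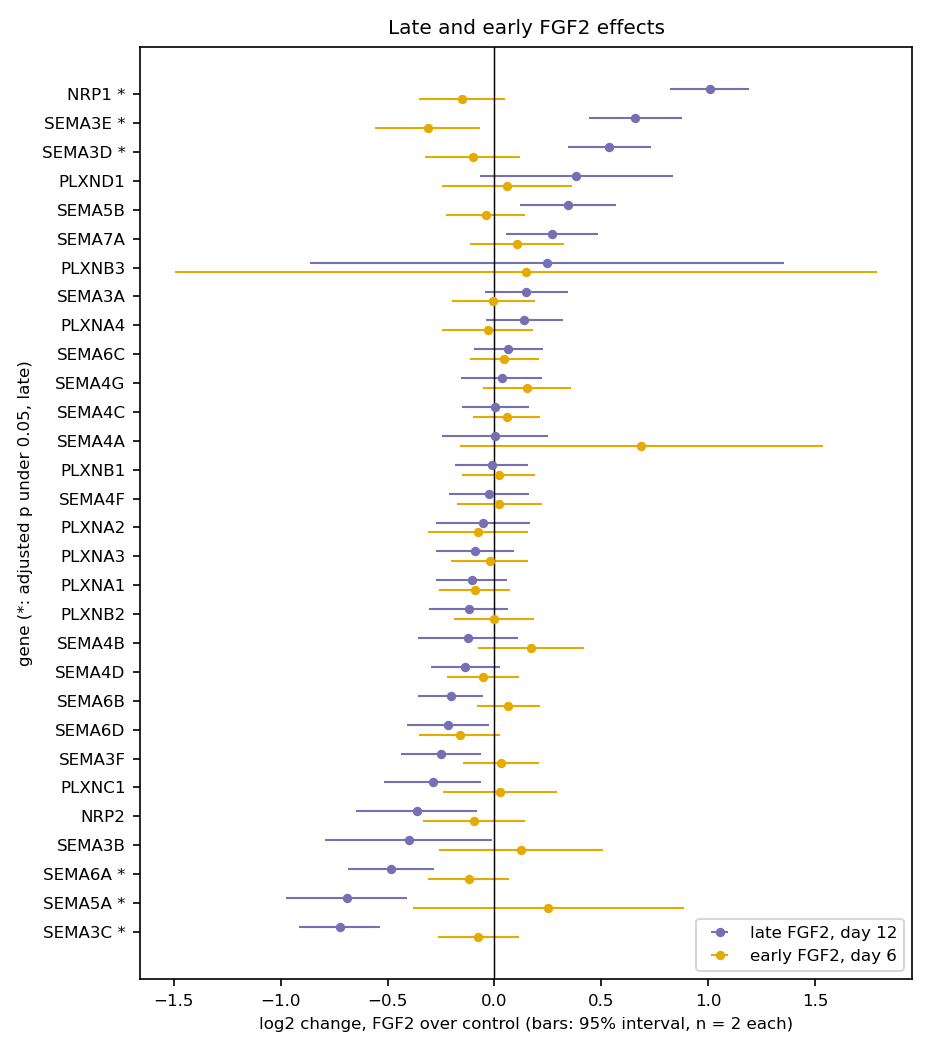
Log2 change with FGF2 over control for 30 of the 31 genes, late (purple) above early (yellow), with 95% intervals from the shared fit and 2 libraries per group; SEMA3G is left out because it had 0 counts in the day-12 controls. Asterisks mark the 6 genes with an adjusted p under 0.05 for late FGF2, NRP1 and SEMA3C lying at the ends, and intervals of the plexin A and B genes other than PLXNB3 lie within 0.4 of 0.

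A list of 44 signalling partners covers coreceptors of the adhesion and receptor kinase families, the integrin receptor of SEMA7A and cytoplasmic effectors of plexins. It was chosen with results of these data known. With doxycycline, 22 of the 41 at 10 CPM or more differed by at least 4-fold on day 5 (15 higher, 7 lower), beside 24% of all genes, and 17 of 37 on day 11 (13 higher, 4 lower), beside 21.4%. The highest by CPM of those on both days were 3 collapsin response mediators, DPYSL3, CRMP1 and DPYSL2, from a family whose phosphorylation follows SEMA3A signalling. DPYSL3 was at 2955 CPM with doxycycline against 483 CPM on day 5, CRMP1 at 1746 CPM against 80.0 CPM, DPYSL2 at 1252 CPM against 98.7 CPM and DPYSL5 at 780 CPM against 12.6 CPM. L1CAM, an adhesion molecule that pairs with NRP1, was at 1190 CPM against 68.0 CPM on day 5 and at 881 CPM against 5.63 CPM on day 11, and CNTN2, an axonal adhesion molecule, was at 1111 CPM against 5.46 CPM on day 5. On day 11, DPYSL3 was at 3558 CPM with doxycycline, against 652.5 CPM, and EVL, which promotes actin filament growth, at 488 CPM against 89.4 CPM.

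Of the 42 partners tested in the FGF2 set, 39 passed for day 12 against day 6 in the controls, 19 higher and 20 lower, beside 64% of all genes. MET, a partner of plexin B, was at 53.4 and 54.6 CPM on day 12, against 0.258 and 0.343 CPM on day 6 (log2 change 7.47). CHL1, a close relative of L1CAM, had a log2 change of 3.06, the Rac activator TIAM1 of 2.07 and the CDK5 activator CDK5R1 of 1.35. MICAL1, an oxidoreductase that acts on actin downstream of plexin A, fell by 2.76 and CNTN2 fell by 2.04 on the log2 scale. With late FGF2, 3 of the 42 partners rose and 0 fell (7.14%), beside 2.17% of all genes. ITGB1, the beta 1 subunit of the SEMA7A receptor, was at 198 and 205 CPM with late FGF2, against 134 and 127 CPM (log2 change 0.62, adjusted p = 0.000152). CNTN2 was at 269 and 271 CPM, against 181 and 167 CPM (0.63, adjusted p = 0.00032), and CHL1 at 140 and 158 CPM, against 99.1 and 93.3 CPM (0.63, adjusted p = 0.000812). The same 3 partners passed in the late minus early difference, ITGB1 with 0.74, CNTN2 with 0.71 and CHL1 with 0.83 on the log2 scale, and 0 partners were called for early FGF2 (2 at an unadjusted p under 0.05).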

How the data were processed

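Bulk RNA-seq counts of 13 libraries were used. Per the labels' protocols, libraries were made with a TruSeq RNA kit that does not mark strand, and per the submitters' processing notes reads were handled with Subread and featureCounts 1.5.0 on GRCh38. The authors deposited counts per gene for both sets, normalised values of the doxycycline set (a signal scale whose steps are not stated in the sources used here), and tables from DESeq2 and limma with log2 changes and adjusted p-values for FGF2. These tables and the normalised values served only as alternatives. In all, 16 per-sample columns that match no sample here were not used.

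For the FGF2 set, edgeR 4.0.16 in R 4.3.3 was run on all genes that passed filterByExpr, with TMM scaling, a quasi-likelihood fit over all 8 libraries in 4 groups and Benjamini-Hochberg adjustment over 20142 genes, calling an adjusted p under 0.05. The fit was also run on counts simulated with the spread estimated from these libraries. Such counts cannot show whether that spread is well measured. In the FGF2 set, a group at 0 counts was given a floor of 3 counts. For the doxycycline set, 1 library per group allowed no test. Its ratios of TMM-scaled CPM with a pseudocount of 1 CPM were called at 4-fold or more with at least 10 CPM in either library. Their intervals are 95% exact binomial intervals. No test compared levels between the sets, which come from separate sequencing runs. Where levels of both sets are given side by side, each was scaled within its own run. DESeq2 1.42.0 and limma 3.58.1 were alternatives. Gene positions and exon lengths are from GENCODE v29 on GRCh38, and PLXNB3, whose symbol the FGF2 tables lack, was matched by its identifier. For the day-12 controls, the title's 12 days were followed rather than the 6 days in the description.

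Members and lists were chosen with earlier results of these data known. Genes given with all values are those called for late FGF2, the 3 called genes with the greatest rise and the 3 with the greatest fall from day 6 to day 12, and the 3 highest and 3 lowest doxycycline ratios past 4-fold on each day. Partners named are at most 6 per comparison, of smallest p or, with doxycycline, of highest CPM.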

Additional observations from a re-analysis of the deposited data

Results flagged for a closer look

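The effect of FGF2 differed between late and early treatment for 4 of the 31 genes by the interaction test of edgeR's quasi-likelihood fit. The log2 difference, late minus early, was 1.16 for NRP1, 0.97 for SEMA3E and 0.64 for SEMA3D, and -0.65 for SEMA3C. Late and early FGF2 differ in day, in the presence of doxycycline and in the state of the cells, which cannot be told apart.

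SEMA3A and SEMA4A had doxycycline ratios that lay at least 2-fold on opposite sides of the control on the 2 days. The log2 ratio of SEMA3A was -1.63 on day 11 and 1.43 on day 5, and that of SEMA4A was 2.47 on day 11 and -1.71 on day 5. Each rests on 1 library per group, and the difference between the days was not tested. Both genes also differed between the 2 controls, SEMA3A with 80.4 CPM on day 11 and 15.4 CPM on day 5, and SEMA4A with 5.81 CPM on day 11 and 47.7 CPM on day 5.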

How the results depend on the processing

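No called value of the 31 genes changed direction, while with library totals the median log2 ratio of all genes on day 11 turned to -0.18, against 0.16 with TMM. The 22 counts over the 31 genes that moved are these (130 did not). Late FGF2 called 3 genes lower, against 6 when only the day-12 groups were fitted, 5 in the authors' deposited DESeq2 table and 7 in their limma table. Leaving out a day-12 library gave 1 to 3 higher and 1 lower in each of the 4 fits. Early FGF2 called 0 lower, and 0 to 4 when a library was left out. The late minus early difference called 2 lower without a filter, and 1 to 5 higher and 0 to 3 lower when a library was left out. In the doxycycline set, 4 genes in place of 7 were higher on day 11 with the authors' deposited normalised values. For day 5 against day 0 without doxycycline, the 2 higher became 1 with library totals and 0 with those normalised values. The cause was not tested. A further 338 values moved, either counts over all genes or single-gene doxycycline log2 ratios that left their counting interval under another setting. The counting intervals of the doxycycline ratios therefore do not cover the choice of scaling. Over all genes, late FGF2 called 437, against 656 without a filter, 1338 with only the day-12 groups and 184 to 219 with a library left out. The difference called 147, against 268 without a filter and 78 to 1345 with a library left out. Single-gene calls were lost in 32 combinations of gene, comparison and alternative, all of them in SEMA3C, SEMA3D, SEMA3E, SEMA5A, SEMA6A, SEMA6C or SEMA7A, and gained in 14. Scaling on filtered genes and the authors' deposited tables were alternatives added after the data were seen.

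The labels number the replicates, but same-numbered libraries deviated together only weakly (correlations 0.0111 to 0.225, 1 of 6 over 0.1), so they were not taken as pairs. The highest, 0.225, was between early FGF2 and its day-6 control, which are compared with each other. Between late FGF2 and its control it was 0.0808. With a replicate block the counts over the 31 genes stayed at 3 higher and 3 lower for late FGF2 and 0 for early FGF2, 3 and 1 for the difference, and 17 and 9 for day 12 against day 6. Over all genes the block moved late FGF2 to 598 calls and the difference to 206.

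With 2 libraries per group, FGF2 changes in genes at a few counts on day 12, such as SEMA3G and PLXNB3, were not detectable at this depth, and the doxycycline set gives counting error only.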
